A study of Mus musculus with 2 samples.

Results

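The 8 genes described here, Cd22, Cd72, Siglecg, Blk, Btk, Syk, Lyn and Blnk, encode proteins that carry or restrain the signal of the B cell receptor, and they were chosen by name among the 32285 genes of the count files. All 8 were detected. Their UMIs (unique molecular identifiers, each standing for 1 captured transcript) were summed per genotype in 4 classes of barcodes, where a barcode marks 1 droplet. B barcodes held at least 1 UMI of Cd79a and of Ms4a1 and fewer than 5 of Mzb1. Plasma barcodes held at least 5 UMIs of Mzb1, a chaperone of antibody-secreting cells. Monocyte or macrophage barcodes held at least 5 UMIs of Lyz2, and T barcodes held Cd3e and no Cd79a.

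PEP is the mouse phosphatase encoded by Ptpn22. PEP-WT mice were wild type C57BL/6 animals. PEP-619WW mice carried, on both alleles of the same background, the CRISPR/Cas9-made substitution of arginine by tryptophan at residue 619. Both groups were 6 to 12 weeks old, were infected with LCMV-cl13 (a lymphocytic choriomeningitis virus that sets up a lasting infection), and were studied on day 8. For each genotype, spleen cells from 4 to 5 mice were combined, live CD45+ cells were sorted, and 1 library per genotype was sequenced, so the design has no replicate error and no test was made. Other label fields of the same samples name Liver, Jurkat and tumor infiltrating cells, which does not match this protocol. A second deposited run per genotype was kept apart. The cell numbers in the study's methods are those of that run, so whether the protocol given here describes the run used here is not known.

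The B cell receptor is a membrane immunoglobulin with the signaling chains Cd79a and Cd79b. When antigen binds, Src family kinases such as Lyn and Blk phosphorylate these chains, Syk docks on them, and the adaptor Blnk brings Btk and phospholipase C gamma together. Cd22, Cd72 and Siglecg are inhibitory receptors whose cytoplasmic tails recruit phosphatases such as Ptpn6 once phosphorylated, in large part by Lyn. Ptpn22 removes phosphates from Src and Syk family kinases, which is why these genes bear on a Ptpn22 allele.

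The PEP-WT library held 14821 barcodes and 77916082 UMIs and the PEP-619WW library 8576 barcodes and 56745578 UMIs, and 39 barcode sequences occurred in both. B barcodes numbered 5515 (37.2% of the library) in PEP-WT and 2313 (27.0%) in PEP-619WW, with a median of 2460 and 3048 UMIs. Plasma barcodes numbered 2361 and 1893, monocyte or macrophage barcodes 1600 and 1236, and T barcodes 1754 and 1057. The classes were not pure. A UMI of the B cell gene Ms4a1 was present in 61.3% of PEP-WT and 45.7% of PEP-619WW plasma barcodes, and the neutrophil gene S100a8 was present in 12.3% and 33.0% of B barcodes. In the Lyz2 class, 485 and 403 barcodes also met another class rule. That class also held many neutrophil barcodes, since 33.9% of it in PEP-WT and 40.9% in PEP-619WW had at least 20 S100a8 UMIs, while the monocyte gene Csf1r was present in 55.4% and 44.5%. Its 4 neutrophil markers summed to 23856 and 37642 CPM (UMIs per 1000000 UMIs of a class), against 8064 and 7020 CPM for the 6 monocyte or macrophage markers.

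The members lie on 5 autosomes and the X chromosome in build GRCm38. The inhibitory receptor genes are Cd22 (chr7:30865402-30880342, minus strand), Cd72 (chr4:43446462-43454628, minus strand) and Siglecg (chr7:43408204-43418358, plus strand). The kinase genes are Lyn (chr4:3678115-3813122, plus), Blk (chr14:63372836-63417037, minus), Syk (chr13:52583173-52648792, plus) and Btk (chrX:134542336-134583570, minus). The adaptor gene Blnk lies at chr19:40928927-40994535 on the minus strand. RefSeq promoter windows of 250 bases before to 50 bases after the start were at hand for 6 of the 8 genes, and those of Blk and Lyn were not used here. These windows were searched on both strands for 3 motifs of B cell and myeloid factors, chosen after the windows had been seen: the octamer ATTTGCAT, the PU.1 motif GAGGAAGT and the EBF1 motif (TCCC and GGGA with NN between them). The octamer occurred in 1.74% of 32851 promoter windows, the PU.1 motif in 3.20% and the EBF1 motif in 0.904%. The stretches below are the upstream bases around the only matches among the members, shown because no other member window searched held one of these motifs, with the match in capitals, 5′ to 3′ on the minus strand of GRCm38.p6.
Cd22 (chr7:30879029-30879176, EBF1 motif 49 bases before the start): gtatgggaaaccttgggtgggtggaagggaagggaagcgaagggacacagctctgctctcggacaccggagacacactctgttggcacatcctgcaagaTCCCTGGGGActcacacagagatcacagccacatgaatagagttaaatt
Cd72 (chr4:43454629-43454876, PU.1 motif read on the other strand, 49 bases before the start): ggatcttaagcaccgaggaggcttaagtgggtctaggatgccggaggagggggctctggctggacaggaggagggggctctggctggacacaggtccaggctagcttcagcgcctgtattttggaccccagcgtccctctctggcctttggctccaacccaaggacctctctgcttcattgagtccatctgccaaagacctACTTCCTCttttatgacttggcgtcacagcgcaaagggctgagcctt
Blnk (chr19:40994333-40994362, octamer 130 bases before the start): tactggaagggATTTGCATgcccaataagg
The Cd72 stretch lies upstream of the annotated gene, the Cd22 stretch lies outside exons but inside the annotated gene, in an intron of a longer transcript, and the Blnk stretch lies in an exon of a longer annotated Blnk transcript. A match describes letters in the window and does not show binding. The windows of Siglecg, Btk and Syk held none of the 3 motifs, and no relation between the motifs and the levels is drawn.

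Expression of the members centered on B barcodes. In CPM, 7 of the 8 genes were highest in B barcodes in both genotypes, though Blnk was nearly as high in plasma barcodes. The exception was Lyn, which was highest in monocyte or macrophage barcodes, the class that also holds neutrophils. Of all genes measured over the 4 classes, 30.2% peaked in B barcodes in the PEP-WT library and 32.9% in the PEP-619WW library. All intervals below are exact 95% intervals and cover counting error only. In a library, more cells of a kind within a class and more RNA per cell cannot be told apart.

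**Figure D1:**
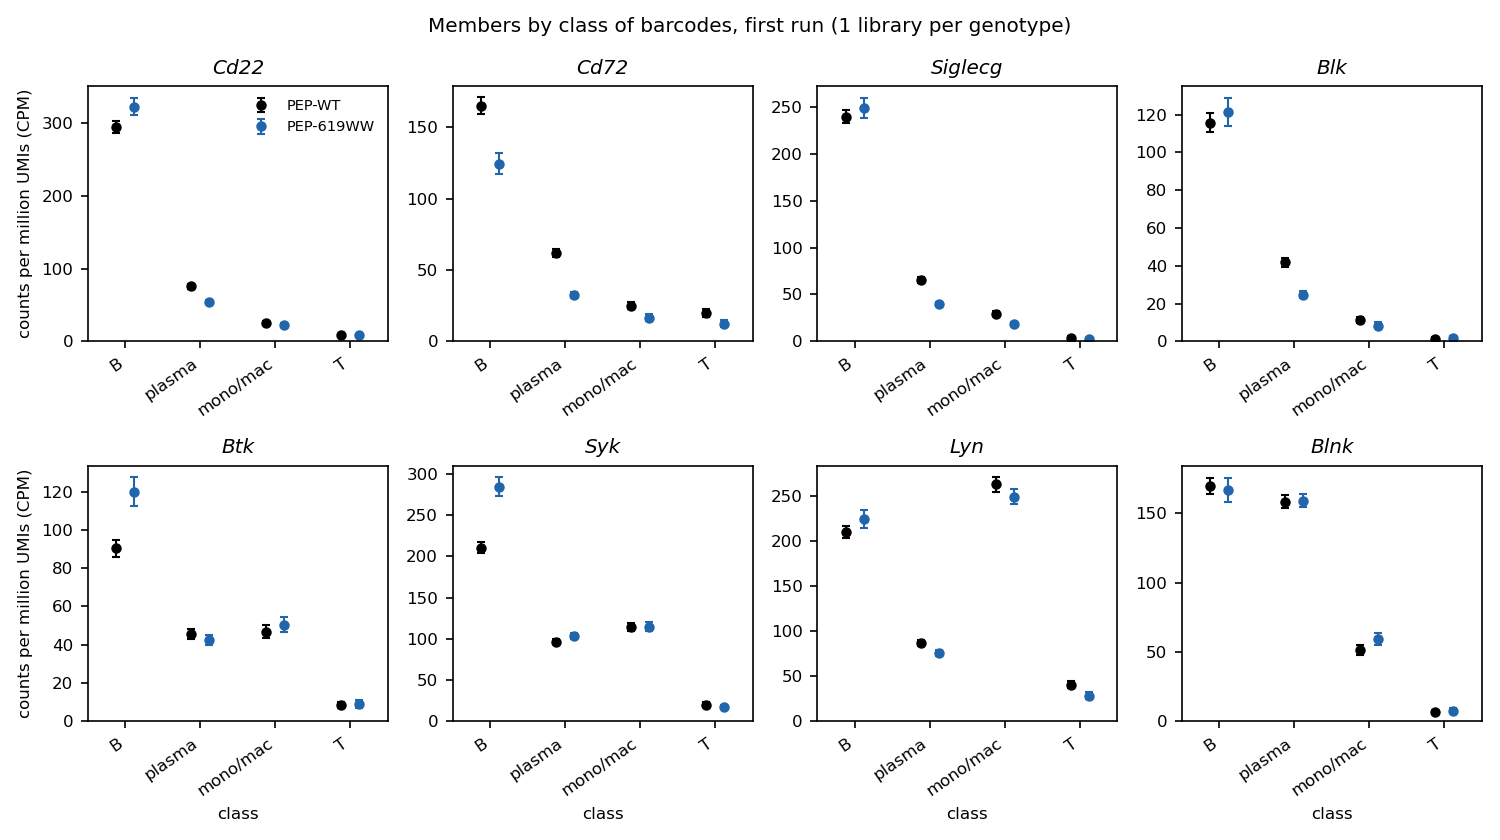
Level of each member in CPM (vertical axis, from 0) in the 4 classes of barcodes (horizontal axis, with mono/mac for monocyte or macrophage), for PEP-WT (black) and PEP-619WW (blue); points are summed UMIs of 1 library and bars are exact Poisson 95% intervals. Cd22, Cd72, Siglecg and Blk fell from B to plasma to monocyte or macrophage barcodes, Lyn was highest in monocyte or macrophage barcodes, and Blnk was near 160 CPM in both B and plasma barcodes (158 to 169 CPM).

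Cd22 encodes the sialic acid-binding lectin that damps receptor signals in B cells. In B barcodes its level was 295 CPM (287 to 303) in PEP-WT and 323 CPM (311 to 335) in PEP-619WW. In plasma barcodes it was 75.6 and 54.1 CPM, in monocyte or macrophage barcodes 24.8 and 23.3 CPM, and in T barcodes 8.87 and 8.40 CPM. The B level thus exceeded that of plasma barcodes 3.91-fold in PEP-WT and 5.96-fold in PEP-619WW, and that of T barcodes 33.3-fold and 38.4-fold. A Cd22 UMI was found in 57.3% and 63.9% of B barcodes, against 4.79% and 5.58% of T barcodes, which are deeper (median 4024 and 6360 UMIs). The T rule leaves out barcodes with Cd79a and so lowers the B cell RNA in this class by itself. Its levels therefore set no limit, upper or lower, for the background from free RNA. After thinning each barcode to 1000 UMIs, the shares in B barcodes were 28.3% (27.1 to 29.5) and 29.7% (27.8 to 31.6), and those in T barcodes 1.05% and 0.391%.

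Cd72, a C-type lectin receptor that also recruits Ptpn6, was present at 165 CPM (PEP-WT) and 124 CPM (PEP-619WW) in B barcodes. It reached 61.7 and 32.3 CPM in plasma barcodes, 24.8 and 16.6 CPM in monocyte or macrophage barcodes, and 19.8 and 12.4 CPM in T barcodes. In CPM the PEP-619WW value was the lower one in each of the 4 classes. Thinned to 1000 UMIs, 15.4% of PEP-WT and 11.3% of PEP-619WW B barcodes held Cd72, against 2.45% and 1.08% of T barcodes. In monocyte or macrophage barcodes the thinned share was not lower in PEP-619WW (1.9% in PEP-WT, 2.1% in PEP-619WW, with intervals that overlapped).

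Siglecg encodes a sialic acid-binding inhibitory lectin of B cells. Its level in B barcodes was 239 CPM in PEP-WT and 248 CPM in PEP-619WW, with intervals that overlapped. In plasma barcodes it was 65.2 and 39.7 CPM, and in monocyte or macrophage barcodes 29.3 and 18.6 CPM. T barcodes held 4.15 and 2.33 CPM, from 44 and 20 UMIs. The B level was 57.6-fold above the T level in PEP-WT and 106-fold above it in PEP-619WW.

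Blk is the Src family kinase most restricted to B cells. It stood at 116 CPM in PEP-WT and 121 CPM in PEP-619WW B barcodes, at 41.9 and 24.6 CPM in plasma barcodes and at 11.3 and 8.34 CPM in monocyte or macrophage barcodes. In T barcodes only 16 and 15 UMIs of Blk were counted, or 1.51 and 1.75 CPM. Lyn, the Src family kinase that serves both activation and inhibition, had another distribution. It measured 210 and 224 CPM in B barcodes, 86.7 and 75.7 CPM in plasma barcodes, 263 and 249 CPM in monocyte or macrophage barcodes, and 40.7 and 28.1 CPM in T barcodes. The monocyte or macrophage level of Lyn was 1.25 times the B level in PEP-WT and 1.11 times in PEP-619WW, and the counting intervals of both ratios lay above 1.

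Syk, the kinase that docks on the phosphorylated receptor chains and on myeloid receptors, was found at 210 and 284 CPM in B barcodes and at 96.5 and 103 CPM in plasma barcodes. Monocyte or macrophage barcodes held 114 and 115 CPM of Syk, and T barcodes 20.1 and 16.9 CPM. Btk, the Tec family kinase that activates phospholipase C gamma, followed the same order of B above monocyte or macrophage above T. It measured 90.3 and 120 CPM in B barcodes, 45.6 and 42.4 CPM in plasma barcodes, 46.8 and 50.3 CPM in monocyte or macrophage barcodes, and 8.30 and 8.75 CPM in T barcodes. For Btk the plasma and the monocyte or macrophage levels of PEP-WT did not differ beyond their counting intervals.

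Blnk encodes the adaptor that links Syk to Btk. Its level was nearly as high in plasma barcodes (158 CPM in PEP-WT, 159 CPM in PEP-619WW) as in B barcodes (169 and 167 CPM), a ratio of 0.93 and 0.95. The interval of the PEP-619WW ratio (0.898 to 1.01) did not separate the 2 classes. Monocyte or macrophage barcodes held 51.2 and 59.0 CPM and T barcodes 6.51 and 7.70 CPM. Immunoglobulin genes supplied 18.2% and 21.1% of the UMIs of plasma barcodes but only 1.51% and 1.75% of those of B barcodes. With immunoglobulin genes left out of the total, Blnk was higher in plasma barcodes (194 and 201 CPM) than in B barcodes (172 and 170 CPM).

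Of the 8 members, 7 were at least 1.5-fold lower in plasma than in B barcodes in both genotypes, where 37.2% of all measured genes were in PEP-WT and 41.5% in PEP-619WW, and Blnk was the exception. Against monocyte or macrophage barcodes, 7 of 8 were at least 1.5-fold higher in B barcodes (background 23.2% and 28.8%), with Lyn as the exception. Against T barcodes all 8 were (background 16.8% and 19.3%).

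To follow the members from B to plasma barcodes more closely, barcodes with Cd79a were divided by their Mzb1 UMIs into 4 steps (0, 1 to 4, 5 to 19, and 20 or more). The inhibitory receptors were low at the top step alone. The 6 B cell markers also fell there, summing to 5043, 5852, 4501 and 962.5 CPM along the steps in PEP-WT. In PEP-619WW they summed to 4358, 5430, 4279 and 837.8 CPM. Ms4a1 was present in 90.2% and 72.4% of barcodes at 5 to 19 UMIs and in 40.8% and 37.3% at the top step. The step of 5 to 19 UMIs thus still held mostly barcodes with B cell genes. Cd22 measured 239, 275, 202 and 27.0 CPM along the steps in PEP-WT and 240, 280, 232 and 17.2 CPM in PEP-619WW. Siglecg measured 188, 225, 178 and 21.6 CPM in PEP-WT and 174, 214, 164 and 14.1 CPM in PEP-619WW. Cd72 measured 126, 157.5, 155 and 26.2 CPM in PEP-WT and 88.7, 111, 135 and 11.2 CPM in PEP-619WW. Blk showed the same shape, with 113 CPM at 1 to 4 Mzb1 UMIs and 14.9 CPM at 20 or more in PEP-WT, and 108 and 11.4 CPM in PEP-619WW.

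The kinases shared with myeloid cells declined less. Between 1 to 4 and 20 or more Mzb1 UMIs, Syk went from 204 to 70.8 CPM in PEP-WT and from 264 to 78.2 CPM in PEP-619WW, and Lyn from 200 to 54.0 CPM and from 207 to 53.5 CPM. Btk went from 84.9 to 35.9 CPM in PEP-WT and from 110 to 35.9 CPM in PEP-619WW. Blnk changed least, with 131, 162, 182 and 149 CPM along the steps in PEP-WT and 120, 156, 161 and 159 CPM in PEP-619WW. At the top step the level was 10.2-fold (Cd22), 10.4-fold (Siglecg), 7.62-fold (Blk) and 6.01-fold (Cd72) below that at 1 to 4 UMIs in PEP-WT, but 3.70-fold for Lyn, 2.89-fold for Syk, 2.37-fold for Btk and 1.09-fold for Blnk. For Blnk in PEP-WT the interval of the ratio of the top step to 1 to 4 UMIs lay below 1 (0.873 to 0.972). The order of these 8 declines was nearly the same in PEP-619WW, with 16.3-fold for Cd22, 15.2-fold for Siglecg, 9.94-fold for Cd72, 9.47-fold for Blk, 3.86-fold for Lyn, 3.38-fold for Syk and 3.07-fold for Btk, while the ratio for Blnk was 1.02 (0.960 to 1.09). At the top step 7 of 8 members were at least 1.5-fold lower than at 1 to 4 UMIs, where 44.7% of measured genes were in PEP-WT and 47% in PEP-619WW. Immunoglobulin genes took 23.5% and 24.5% of the UMIs at the top step, which lowers the CPM of every other gene.

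**Figure D2:**
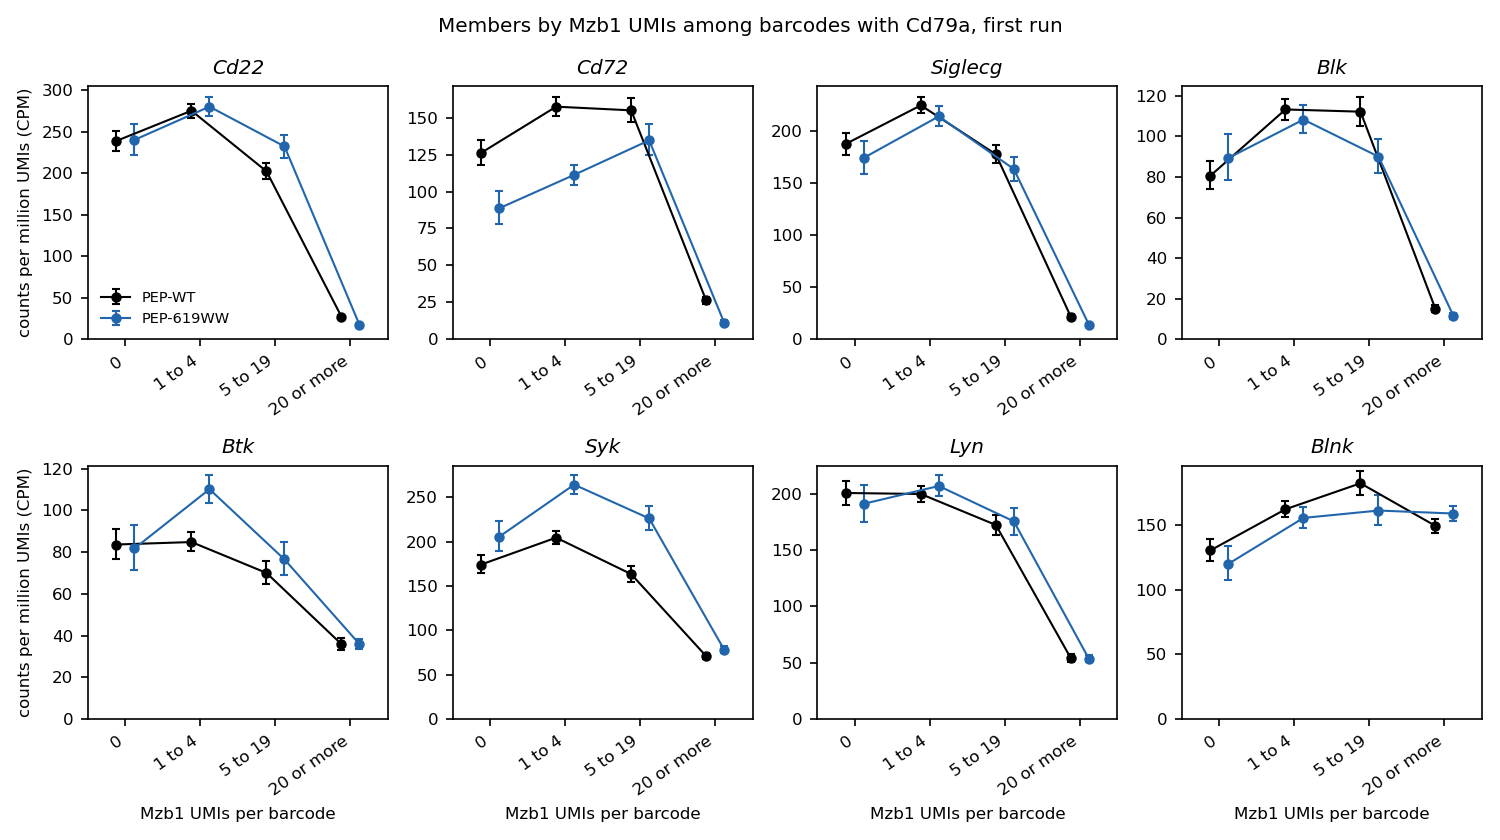
Level of each member in CPM (vertical axis, from 0) in 4 steps of Mzb1 UMIs per barcode (horizontal axis) among barcodes with Cd79a, for PEP-WT (black) and PEP-619WW (blue); points are summed UMIs of 1 library, bars are exact Poisson 95% intervals, and lines join the steps of a genotype. Cd22, Cd72, Siglecg and Blk drop between 5 to 19 and 20 or more Mzb1 UMIs, Btk, Syk and Lyn drop less, and Blnk is at 149 to 159 CPM at the last step.

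Levels were also taken in plasma barcodes without an Ms4a1 UMI (915 in PEP-WT and 1028 in PEP-619WW), a selection added after the data were seen. Ms4a1 is one of the genes that define the B class, so the selection itself removes barcodes with B cell genes, and low values of such genes there are no finding. There Cd22 stood at 4.46 and 6.18 CPM, Cd72 at 6.16 and 4.21 CPM, Siglecg at 5.92 and 6.66 CPM and Blk at 4.30 and 4.69 CPM. Cd22 and Cd72 were below their levels in T barcodes. In the same barcodes Blnk stood at 151 and 155 CPM, Syk at 58.3 and 65.1 CPM, Btk at 32.6 and 32.9 CPM and Lyn at 39.0 and 48.0 CPM. Counted per barcode and thinned to 1000 UMIs, at least 1 of the 3 inhibitory receptors was detected in 53.7% and 53.1% of B barcodes, in 24.2% and 15.9% of plasma barcodes, in 5.59% and 3.48% of barcodes with 20 or more Mzb1 UMIs, and in 3.90% and 1.86% of T barcodes.

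Comparing the genotypes asks whether the PEP-619WW allele goes with another level of the receptor pathway in the same kind of cell. In B barcodes none of the 8 members differed 1.5-fold, where 5.99% of 10768 measured genes (at least 50 UMIs over both genotypes) were at least 1.5-fold higher in PEP-619WW and 3.32% at least 1.5-fold lower. The median log2 ratio of PEP-619WW over PEP-WT was 0.08 for the members and 0.07 for all measured genes. Syk was 1.35 times as high in PEP-619WW as in PEP-WT (log2 ratio 0.43, 0.36 to 0.51) and Btk 1.33 times as high (0.41, 0.29 to 0.52), whereas Cd72 was at 0.75 of the PEP-WT level (-0.41, -0.51 to -0.31). The other members lay between -0.02 (Blnk) and 0.13 (Cd22, 0.06 to 0.19). Over 10 alternative settings Syk ranged from 0.34 to 0.54, Btk from 0.18 to 0.46 and Cd72 from -0.49 to -0.31.

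**Figure D3:**
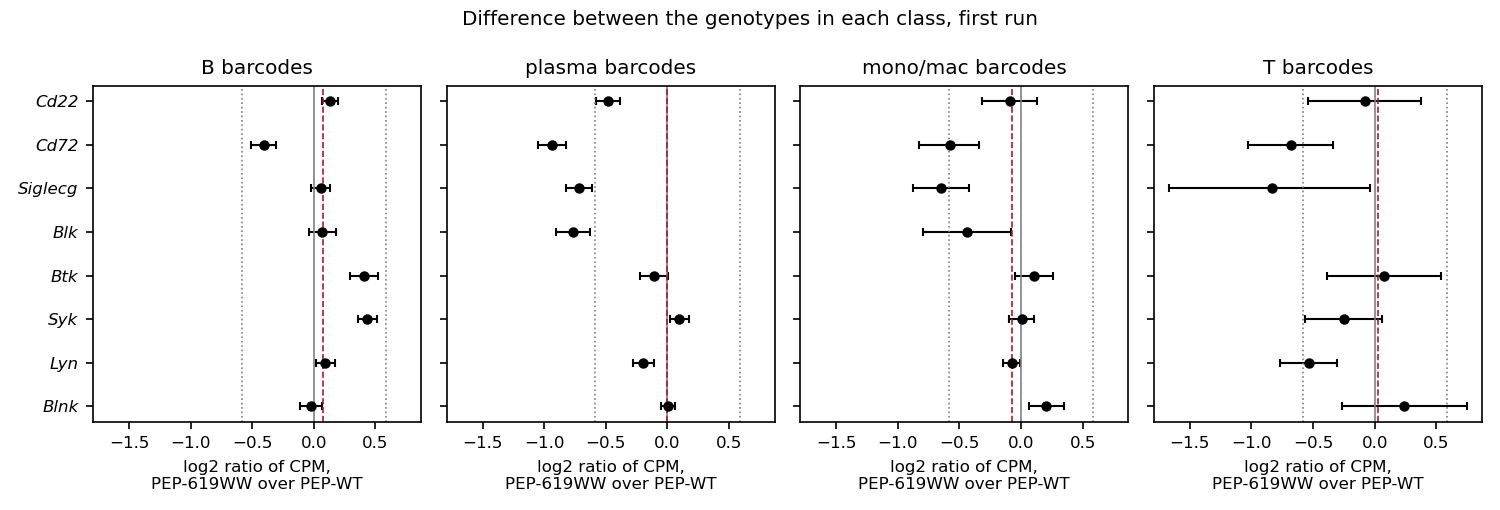
Log2 ratio of CPM, PEP-619WW over PEP-WT (horizontal axis), for each member (vertical axis) in the 4 classes of barcodes, with exact 95% intervals for counting error, a dashed red line at the median of all measured genes and dotted lines at 1.5-fold; Blk in T barcodes had under 50 UMIs and is not drawn. Btk and Syk lie right of 0 and Cd72 left of it in B barcodes, and Cd72, Siglecg and Blk lie past 1.5-fold to the left in plasma barcodes.

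Markers of other cells also differed between the genotypes within B barcodes. The 6 monocyte or macrophage markers summed to 628 CPM in PEP-WT and 904 CPM in PEP-619WW, with 6 of 6 higher in PEP-619WW and none at 0, and the 6 plasma markers summed to 599 and 691 CPM, with 6 of 6 higher. The 4 neutrophil markers summed to 1670 CPM in PEP-WT and 3976 CPM in PEP-619WW (4 of 4 higher) and the 3 erythroid markers to 3711 and 688.5 CPM (3 of 3 lower), with none at 0. The 3 plasmacytoid dendritic markers summed to 320.2 and 188 CPM, although 2 of 3 were higher in PEP-619WW. Syk, Btk and Lyn are also expressed by myeloid cells. In B barcodes with no S100a8 UMI the log2 ratio was 0.54 for Syk, 0.43 for Btk and -0.31 for Cd72, and in those with no UMI of the hemoglobin gene Hbb-bs it was 0.45, 0.43 and -0.46. The part of other cells' RNA in the remaining difference was not tested.

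The 3 members with the clearest difference were also compared within narrower gates of B barcodes. Barcodes with Fcer2a (CD23, a follicular B cell gene) and no Cr2 numbered 640 in PEP-WT and 212 in PEP-619WW. There Btk measured 80.9 and 142 CPM and Syk 180 and 272 CPM, and these were the 2 of 8 members at least 1.5-fold higher in PEP-619WW, against 9.99% of measured genes (8% at least 1.5-fold lower). Blnk was 137 and 204 CPM and Cd72 170 and 118 CPM, both short of 1.5-fold. Barcodes with Cr2 (CD21, highest on marginal zone B cells) and no Fcer2a numbered 1408 and 301. In them Syk, at 188 and 283 CPM, was the 1 member at least 1.5-fold higher (8.14% of measured genes, with 6.33% lower). Btk measured 90.6 and 113 CPM and Cd72 181 and 141 CPM there. Cr2, which sets both gates, was itself lower in PEP-619WW B barcodes (193 and 63.1 CPM), so the gates may not hold the same kinds of B cells in each genotype. Both gates are subsets of the B barcodes in which these 3 members were chosen, and their values are no separate support.

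In plasma barcodes 3 of 8 members, Cd72 (log2 ratio -0.94), Blk (-0.77) and Siglecg (-0.72), were at least 1.5-fold lower in PEP-619WW, where 4.28% of 11675 measured genes were lower and 4.54% higher. Siglecg was at 0.06 with stricter gates and -0.57 with the mean over barcodes. Over 11 alternative settings Cd72 was past 1.5-fold in 10, Blk in 9 and Siglecg in 8. Cd22 was lower by less (-0.48, -0.58 to -0.39). Btk (-0.11), Syk (0.10), Lyn (-0.20) and Blnk (0.00) differed less. All 6 B cell markers were also lower in PEP-619WW plasma barcodes (summed level 1933 CPM in PEP-WT and 1404 CPM in PEP-619WW, none at 0), and all 6 plasma markers were higher (11886 and 12884 CPM). In plasma barcodes with no Ms4a1 UMI, none of the members differed 1.5-fold, and the log2 ratios were 0.17 for Siglecg (-0.28 to 0.63), 0.13 for Blk (-0.41 to 0.67), 0.47 for Cd22 (-0.03 to 0.98) and -0.55 for Cd72 (-1.06 to -0.05). Ms4a1, which sets this selection, was itself lower in PEP-619WW plasma barcodes (308 and 168 CPM), and these 4 members were left at 4.21 to 6.66 CPM, so no direction is read from these ratios.

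Split by Mzb1, none of the members differed 1.5-fold at 0 UMIs (6.72% of measured genes higher, 3.9% lower). None did at 1 to 4 UMIs either (6.53% higher, 2.57% lower). At 0 UMIs Btk measured 83.7 CPM in PEP-WT and 81.8 CPM in PEP-619WW, and Syk 174 and 205.5 CPM. None differed 1.5-fold at 5 to 19 UMIs (6.72% of measured genes higher, 3.62% lower). Syk was higher in PEP-619WW at that step (163 against 226 CPM). The 4 neutrophil markers there summed to 1023 and 3446 CPM, and their part was not tested. At 20 or more UMIs, Cd72 (26.2 against 11.2 CPM), Cd22 (27.0 against 17.2 CPM) and Siglecg (21.6 against 14.1 CPM) were the 3 of 8 members at least 1.5-fold lower in PEP-619WW (3.99% of measured genes lower, 4.16% higher). After thinning, the share of barcodes with Siglecg at this step was not lower in PEP-619WW (1.42% in PEP-WT, 1.85% in PEP-619WW). The thinned shares of Cd72 (2.18% and 0.76%) and Cd22 (2.27% and 1.20%) were lower in PEP-619WW. For each of these 3 members the intervals of the thinned shares overlapped. Blnk at this step was 149 and 159 CPM.

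In monocyte or macrophage barcodes Lyn, Syk and Btk differed little between the genotypes (log2 ratios -0.08, 0.01 and 0.10). Siglecg (-0.65, -0.88 to -0.42) was the 1 member at least 1.5-fold lower in PEP-619WW, where 5.14% of measured genes were lower and 3.75% higher, and Cd72 (-0.58) came just short of that limit. Siglecg was at -0.17 after thinning, -0.15 with the mean over barcodes and -0.36 without S100a8 barcodes, and at 3.81 in the second run. Over 11 alternative settings Cd72 ranged from -1.37 to 0.32 in this class and kept its sign in 9. B cell markers summed to 557 CPM in PEP-WT and 498 CPM in PEP-619WW in this class, 5 of 6 lower in PEP-619WW and none at 0. All 4 neutrophil markers were higher in PEP-619WW in this class. The part of either in these differences was not tested. In the Lyz2 barcodes with no UMI of Cd79a or Ms4a1 (1110 in PEP-WT and 817 in PEP-619WW), Siglecg measured 11.8 CPM (9.54 to 14.4) and 8.17 CPM (6.12 to 10.7), and Cd72 8.66 and 9.10 CPM. Cd22 measured 5.78 and 4.16 CPM and Blnk 7.79 and 8.33 CPM in these barcodes, whereas Lyn was 324 and 316 CPM, Syk 116 and 115 CPM and Btk 42.8 and 48.9 CPM.

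In T barcodes 7 members had at least 50 UMIs, and 2 of these 7, Siglecg (-0.83, -1.67 to -0.04) and Cd72 (-0.68, -1.03 to -0.34), were at least 1.5-fold lower in PEP-619WW (3.16% of measured genes lower, 3.98% higher). Siglecg turned to 0.43 with the mean over barcodes, and Cd72 was at -0.01 in the second run, -0.57 with the mean over barcodes and -0.51 without S100a8 barcodes. Lyn was lower by less (-0.53, -0.77 to -0.30). Over 11 alternative settings the log2 ratio of Lyn ranged from -0.88 to 0.04 and kept its sign in 10. After thinning, Lyn was found in 2.62% of PEP-WT and 2.54% of PEP-619WW T barcodes, with intervals that overlapped. The levels of Siglecg, Cd72 and Lyn in T barcodes are low, between 2.33 and 40.7 CPM. T cells signal through the related kinases Lck and Zap70 and the adaptor Lcp2, and none of the 6 genes of that list passed 1.5-fold in T barcodes. Lck measured 327 and 330 CPM and Zap70 114 and 120 CPM there. The monocyte or macrophage markers summed to 884 CPM in PEP-WT and 713 CPM in PEP-619WW T barcodes, 4 of 6 lower in PEP-619WW and none at 0, and their part in the difference in Lyn was not tested.

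The members were also measured in 5 further gates. Neutrophil barcodes (447 of PEP-WT, 420 of PEP-619WW) held Lyn at 266 and 251 CPM, Syk at 134 and 140 CPM and Btk at 32.7 and 39.2 CPM, but Cd22, Cd72 and Blk at no more than 5.54 CPM. Siglecg in neutrophil barcodes was 19.95 CPM in PEP-WT, from 36 UMIs, and 6.71 CPM in PEP-619WW, from 13 UMIs. Plasmacytoid dendritic barcodes (32 and 16) held Lyn at 206 and 189 CPM and Blnk at 55.7 and 104 CPM, the latter from 13 and 11 UMIs. Conventional dendritic barcodes (76 and 54) held Lyn at 160 and 196 CPM and Siglecg at 25.4 and 35.7 CPM. NK barcodes (61 and 30) held Syk at 128 and 112 CPM, from 29 and 18 UMIs, and Cd72 at 79.4 and 43.7 CPM, from 18 and 7 UMIs. The NK gate was not pure. Its neutrophil markers summed to 75.0 CPM in PEP-WT and 17365 CPM in PEP-619WW, and its erythroid markers to 11610.5 and 231 CPM. In plasmacytoid dendritic barcodes the erythroid markers summed to 8800 and 9.44 CPM. The part of these cells' RNA in the levels was not tested. In erythroid barcodes (319 and 48) Btk was at 12.9 and 19.97 CPM (20 and 10 UMIs) and Lyn at 11.6 and 16.0 CPM (18 and 8 UMIs). Cd22 was at 1.93 CPM in PEP-WT erythroid barcodes and at 0 UMIs in those of PEP-619WW, where a limit of 3 counts stands for 5.99 CPM.

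**Figure D4:**
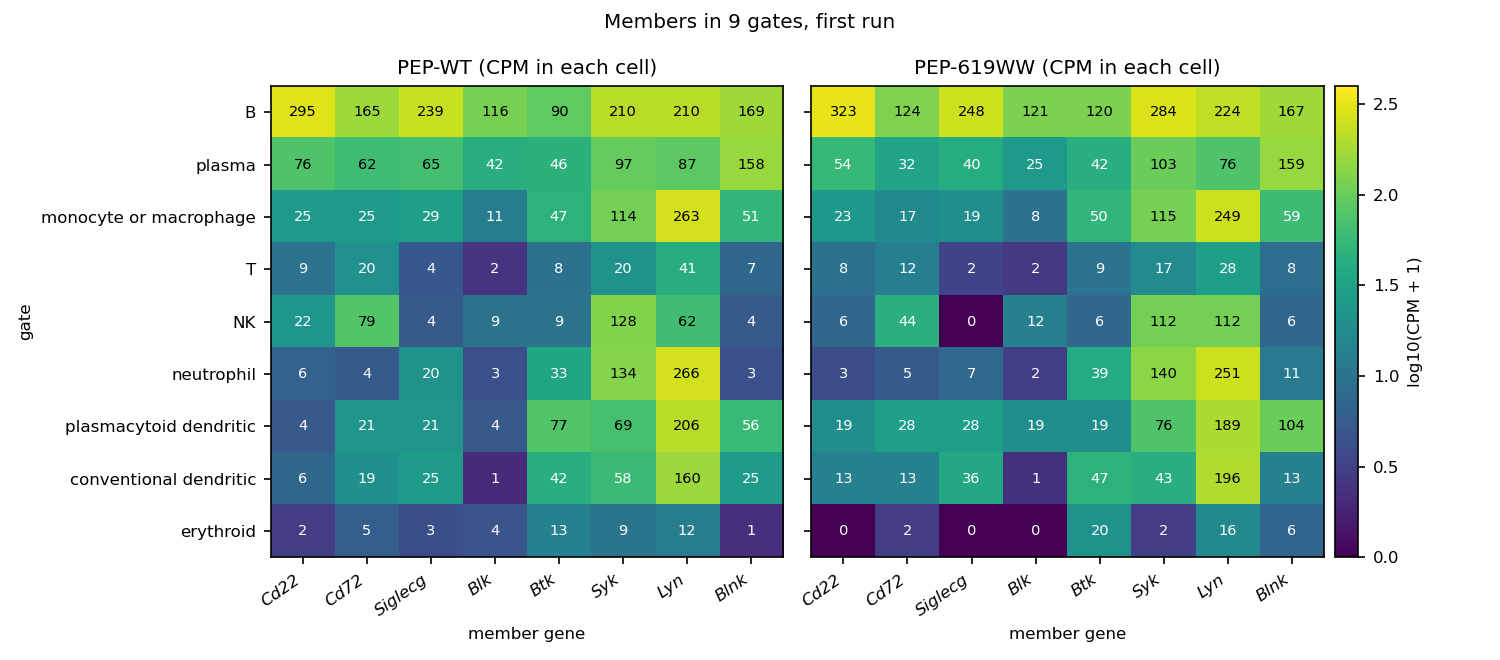
Level of each member (columns) in 9 gates of barcodes (rows) for PEP-WT (left) and PEP-619WW (right); the number in each square is the CPM of 1 library and the color is log10(CPM + 1). Lyn is bright in neutrophil, dendritic and monocyte or macrophage barcodes, Blnk in B and plasma barcodes, and Cd22 and Blk in B barcodes, while the NK and plasmacytoid dendritic gates hold 16 to 61 barcodes each.

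The other genes of the pathway were taken from lists. Of 7 genes of the receptor and its coreceptors in B barcodes, the complement receptor gene Cr2 was the 1 past 1.5-fold, with 193 CPM in PEP-WT and 63.1 CPM in PEP-619WW (log2 ratio -1.61). Ighm was highest in that list (0.36). Of 14 further inhibitors, 3 were at least 1.5-fold higher in PEP-619WW B barcodes and none lower, where 5.99% of all measured genes were higher and 3.32% lower. These were Ceacam1 (20.9 and 35.7 CPM), an adhesion receptor with inhibitory tail motifs, Ptpn22 itself (77.9 and 127 CPM, log2 ratio 0.71, 0.60 to 0.82), and the myeloid lectin Siglece. Siglece stood at only 3.0 and 4.69 CPM, from 54 and 41 UMIs (log2 ratio 0.65, 0.02 to 1.26). The lowest was Ptpn6 (288 and 207 CPM, -0.48), the phosphatase recruited by Cd22 and Cd72. The median log2 ratio of these 14 was 0.30, against 0.07 for all measured genes. The list holds genes that myeloid cells also express (Siglece, Pirb, Lair1, Ceacam1 and Dok3), and the monocyte or macrophage and neutrophil markers were higher in the same PEP-619WW barcodes. Their part in the list's values was not tested.

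Of 14 genes downstream of the receptor none passed 1.5-fold in B barcodes, and they ranged from Rasgrp3 (-0.51), which activates Ras, to the lipid kinase subunit Pik3cd (0.56). Of 8 genes that receptor signals induce, Egr2 was at least 1.5-fold higher in PEP-619WW (4.44 and 9.96 CPM), and Myc was the lowest (77.9 and 52.1 CPM, -0.58). None of the 6 T cell counterparts and none of the 4 myeloid counterparts passed 1.5-fold in B barcodes. In plasma barcodes Cr2 (48.0 and 10.8 CPM), Ptpn6 (117 and 74.0 CPM), Bank1 (101 and 59.4 CPM), Rasgrp3 (43.7 and 26.7 CPM), Cd86 and Myc were at least 1.5-fold lower in PEP-619WW.

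Across the gates, each member was also set beside the genes whose pattern was most like its own, by Pearson's r of log2(CPM + 10) over 24 points (12 gates in both genotypes) among 11388 genes. The points share libraries and barcodes, so r is a description. Cd22 was closest to the B cell transcription factor genes Ebf1 (r = 0.98) and Pax5 (0.97). Blk was closest to Ighd, Gm31243 and the IgM receptor gene Fcmr (all 0.96). Siglecg was closest to Trim7 and the class II gene H2-Eb2 (both 0.95) and to Bend5 (0.94), and Cd72 to Myo1e (0.96), Rubcn (0.95) and Fchsd2 (0.94). Lyn was closest to the interleukin-4 receptor gene Il4ra (0.91) and to Cybb and Ncf1 (both 0.90), subunits of the phagocyte oxidase. Blnk was closest to Gm30211 (0.98), the light chain constant gene Iglc3 (0.97) and Fcrla (0.95). Btk was closest to A930007I19Rik (0.90), the class II gene H2-DMb2 (0.89) and Siglecg (0.88), and Syk to Tmem243, Birc3 (both 0.88) and Pde4b (0.87). Among the members themselves Cd22 and Blk were the most alike (0.95), and Cd72 and Lyn the least (0.34).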

How the data were processed

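Single-cell RNA-seq (10x Genomics 3′ chemistry) was made by the authors from 1 pool of splenocytes per genotype, and they deposited whole-number counts of UMIs per gene and barcode, without normalization. They aligned to mm10 with Cell Ranger (6.0.0 in the submitters' processing notes, while the methods text gives another version). 32158 of 32285 gene identifiers were matched to a symbol. Samples were grouped by the genotype in their labels. For each genotype 2 runs were deposited, and how they relate was not stated. The first was used because the rule for the members names it, and the second holds 9539 and 11029 barcodes, the cell numbers given in the methods.

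UMIs were summed per class and genotype and divided by all UMIs of the class (CPM). A barcode meeting several class rules counted in each, and doublets were not called. A gene was measured in a class with at least 50 UMIs over both genotypes and called past 1.5-fold. With 1 library per genotype there is no test. CPM have exact Poisson, ratios exact conditional and shares Clopper-Pearson intervals at 95%, for counting error only. The ratio was tested on simulated independent Poisson counts, the model its interval assumes. That check covers no variation between barcodes or mice. Thinning drew 1000 UMIs per barcode. Named genes were the members, listed pathway genes past 1.5-fold or at either end of their list, and the 3 most similar genes per member among those with at least 200 UMIs. The members and lists were chosen with earlier results of these data known. Results for some listed or similar genes are not reported here. Promoter sequences are from RefSeq (GRCm38.p6), and gene positions and exons from GENCODE. Alternatives were 10 planned and 3 added settings. Analyses used python (3.11.15) with pandas (2.3.3), scipy (1.17.1) and numpy (2.4.6), and figures matplotlib (3.10.9).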

Additional observations from a re-analysis of the deposited data

Results flagged for a closer look

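The second deposited run entered the comparisons above only as an alternative setting, for Siglecg in monocyte or macrophage barcodes and Cd72 in T barcodes. Its Lyz2 barcodes with no UMI of Cd79a or Ms4a1 (6484 in PEP-WT and 4796 in PEP-619WW) held in PEP-WT more of Cd72, Blnk and Cd22 than the same gate of the first run. These values stand outside the main data. Cd72 measured 64.85 CPM in PEP-WT and 23.9 CPM in PEP-619WW, against 8.66 and 9.10 CPM in the first run. Blnk measured 47.85 CPM and 19.2 CPM, against 7.79 and 8.33 CPM. Cd22 measured 19.66 CPM and 4.12 CPM, against 5.78 and 4.16 CPM. In the same PEP-WT barcodes Blk had 0 UMIs, where a limit of 3 counts stands for 0.0484 CPM, and Siglecg 0.323 CPM, while Cd79b stood at 11.8 CPM. The macrophage genes C1qa and Adgre1 were at 2377 and 212 CPM in these PEP-WT barcodes and at 708.5 and 135 CPM in those of PEP-619WW. In the first run they were at 294 and 55.2 CPM in PEP-WT and at 461 and 57.1 CPM in PEP-619WW. Their part in the differences was not tested. The runs were not tested against each other.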

How the results depend on the processing

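The count of members past 1.5-fold in B barcodes (0) was 0 under all 11 alternatives that gave a value, and the count highest in B barcodes was 6 or 7. Their median log2 ratio in B barcodes rose from 0.08 to 0.18 without S100a8 barcodes. In plasma barcodes the count of 3 became 4 without Hbb-bs barcodes (Cd22 at -0.68), 2 with the mean over barcodes, 1 with stricter gates and 0 with a 2-fold limit or without Ms4a1 barcodes. In monocyte or macrophage barcodes the count of 1 became 5 in the second run, 2 without barcodes meeting 2 rules, with stricter gates or without Hbb-bs barcodes, and 0 with median scaling, the mean over barcodes or a 2-fold limit. In T barcodes the count of 2 became 3 with stricter gates and 0 with a 2-fold limit. It became 1 without barcodes meeting 2 rules, after thinning, with the mean over barcodes or without S100a8 barcodes. After thinning, Siglecg was left with 7 and 4 UMIs and was not measured. In the second run the count was also 1, but the member was Blnk (-1.53). Siglecg was not measured there, and Blk, with no PEP-WT UMI in that run, was not counted. The log2 ratio of Siglecg changed sign to 3.81 in monocyte or macrophage barcodes of the second run (0.322 CPM in PEP-WT, 4.52 CPM in PEP-619WW), to 0.059 in plasma barcodes with stricter gates, to 0.17 there without Ms4a1 barcodes, and to 0.43 in T barcodes with the mean over barcodes. That of Blk in plasma barcodes changed to 0.13 without Ms4a1 barcodes. The causes were not tested. Of 318 single values, 231 stayed within their counting interval, 82 moved beyond it and 5 changed sign after having passed 1.5-fold. The alternatives without S100a8, Hbb-bs or Ms4a1 UMIs were chosen after seeing the data. The second run gave no B or plasma value because PEP-WT had 2 and 0 such barcodes. No paired analysis was possible because each genotype has 1 library. With 1 library of pooled mice, depth limits only counting error, and variation between mice was not measured.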
